A study of Mus musculus with 2 samples.

Results

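Oligodendrocyte precursors were picked out of single-nucleus RNA data from embryonic mouse neocortex by their own marker genes. A nucleus was kept when it had 500 or more genes detected, a UMI (a molecule tag counted once) of Pdgfra or Sox10, UMIs of at least 3 of the 5 genes Pdgfra, Sox10, Olig1, Olig2 and Cspg4, and no UMI of Eomes, a factor of cortical intermediate progenitors. The rule found 170 nuclei among 17227 barcodes. Of these, 48 came from the library labelled MEN1-F/F and 122 from the library labelled MEN1-NCKO.

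Each genotype was represented by 1 library of nuclear RNA from micro-dissected cortex, made with a 10x Genomics 3′ kit. The labels give no more of the alleles than F/F and NCKO. How old the embryos were, how many went into each library, in which cells Men1 was targeted and which part of the gene was removed are not stated in the labels. Men1 encodes menin, a partner of the MLL histone methyltransferases. With 1 library a genotype there is no spread between replicates and no test of genotype, so the intervals below are 95% intervals that cover counting error only.

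Oligodendrocyte precursors arise from ventral and later from dorsal forebrain progenitors, spread through the cortex and keep dividing there. PDGF acting through the receptor encoded by Pdgfra drives their division, and the SOX and OLIG factors hold their identity. Cells that leave this state pass through a stage marked by Gpr17 before they switch on myelin genes, which in the mouse cortex happens mostly after birth. In the embryo the same lineage overlaps in its genes with radial glia and early astrocytes, from which it is told apart by Pdgfra, Sox10 and Cspg4.

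The genes of the gate are a description and support nothing. In the F/F library 36 nuclei held 3 of the 5 gate genes, 10 held 4 and 2 held all 5, and in the NCKO library these counts were 87, 32 and 3. Pdgfra and Sox10 were found together in 28 F/F and 81 NCKO nuclei, Pdgfra without Sox10 in 17 and 33, and Sox10 without Pdgfra in 3 and 8. Just outside the gate lay 38 F/F and 84 NCKO nuclei with 2 of the 5 genes, and the Eomes condition removed 0 and 1 nuclei. Pdgfra stood at 715 CPM, that is, UMIs per 1000000 UMIs of the gated nuclei, in gated F/F nuclei and 432 in gated NCKO nuclei, Sox10 at 321 and 228, Cspg4 at 300 and 187, Olig1 at 210 and 162, and Olig2 at 142 and 80.0. UMIs of gate genes were also found in nuclei that met an excitatory neuron definition, at least 3 of 6 projection neuron genes and no Gad1 or Gad2. The source of these UMIs was not tested. A Pdgfra UMI was in 12 of 1532 such nuclei of the F/F library (0.783%, Clopper-Pearson interval 0.405 to 1.36%) and in 60 of 2819 of the NCKO library (2.13%, 1.63 to 2.73%). The full gate was met by 1 of these F/F nuclei and by 20 of these NCKO nuclei, which therefore carry both profiles and are among the gated nuclei.

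The gated nuclei of the 2 libraries differed in depth and in neuronal RNA, and these values stand beside every comparison below. Median depth was 3231.5 UMIs in the F/F nuclei (range 1470 to 15923) and 3918.5 in the NCKO nuclei (range 917 to 30005), whereas the other nuclei of both libraries had medians of 3825 and 3777. A UMI of Neurod2 or Neurod6, transcription factors of excitatory neurons, or of Gad1 or Gad2, the enzymes of GABA synthesis, was present in 17 of 48 F/F nuclei (35.4%) and 64 of 122 NCKO nuclei (52.5%). With each nucleus thinned to 1000 UMIs, which left out 1 NCKO nucleus, the shares were 14.6% and 17.4%. Nuclei with such UMIs were deep (medians 4544 and 5673) and nuclei without them shallow (3017 and 2616.5), so leaving them out also leaves out depth. The highest doublet scores fell on 2 F/F and 21 NCKO gated nuclei, of which 2 and 20 carried these neuronal UMIs. The summed excitatory neuron list stood at 852 CPM in gated F/F and 1732 in gated NCKO nuclei. Over all gated nuclei the GABAergic neuron list went the other way, at 5881 and 4030 CPM (ratio 0.685, 0.639 to 0.736). A single nucleus gave 26.9% of the F/F and 5.7% of the NCKO UMIs of the GABAergic list. Without nuclei holding the 4 neuronal genes that list stood at 3864 and 4371 CPM (ratio 1.13). Its direction thus depended on which nuclei were counted. Values are therefore given for all gated nuclei and, where it matters, for the 31 F/F and 58 NCKO nuclei without these 4 neuronal genes. That smaller set still differed in neuronal RNA. Its excitatory neuron list stood at 523 and 852 CPM (ratio 1.63, 1.18 to 2.28). A list of pan-neuronal genes stood there at 2388 and 3163 CPM (1.32, 1.14 to 1.55), beside a ratio of 1.40 over all gated nuclei. The part of the neuronal RNA in each difference was not tested.

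Genes outside the gate gave the nuclei an oligodendrocyte precursor profile. Of 28 identity genes that the gate did not use, gated nuclei at 1000 UMIs each had a median of 13 in the F/F library (range 6 to 18) and 11 in the NCKO library (range 4 to 18). The other nuclei had a median of 4 in both. Lhfpl3, a membrane protein gene typical of these cells, was found in 47 of 48 F/F nuclei and 116 of 122 NCKO nuclei. Sox6, a SOX factor that holds precursors back from maturing, was found in 48 of 48 and 120 of 122. At 1000 UMIs Lhfpl3 was present in 91.7% and 90.1% of gated nuclei against 9.50% and 12% of excitatory neurons, which here exclude nuclei with Pdgfra or Sox10 and had median depths of 5359 and 5016 UMIs. Of the 23 identity genes with 50 or more UMIs, 17 were at least 2-fold higher in gated than in other nuclei in both libraries, beside 6.96% of all genes at that minimum. Because each nucleus entered the set for genes of this same program, these values check the label and are not a test.

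**Figure D1:**
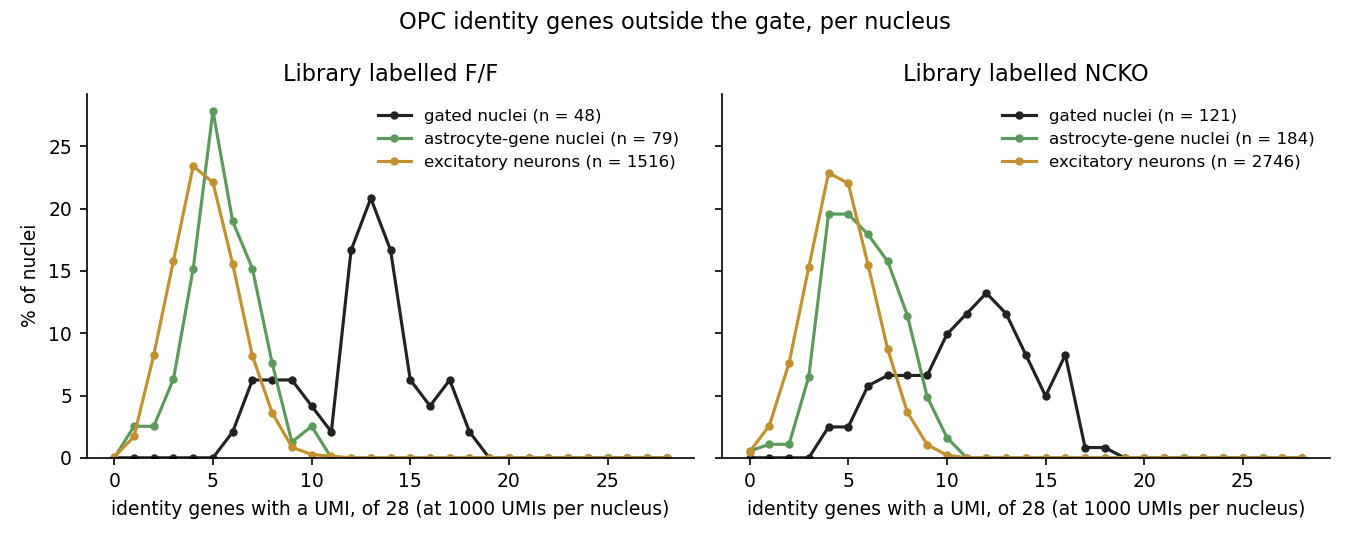
The horizontal axis counts identity genes with a UMI, of 28 outside the gate, in nuclei thinned to 1000 UMIs, and the vertical axis gives the percentage of nuclei in each library. Gated nuclei centre on 13 (F/F) and 11 (NCKO) genes, while nuclei picked by astrocyte genes centre on 5 and 6 and excitatory neurons on 5 in both.

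Endothelial and fibroblast markers were scarce and microglial markers were near their level in the other nuclei, whereas those of glial progenitors were not scarce. Endothelial and pericyte genes gave 0 UMIs in the F/F and 10 in the NCKO gated nuclei, and meningeal fibroblast genes 0 and 7. Microglial genes gave 12 and 46 UMIs over 12 genes, of which 9 were at 0 in each library. Their sums stood at 63.1 and 69.5 CPM, beside 72.2 and 76.7 CPM in the other nuclei. Red blood cell genes gave 7 and 200 UMIs (36.8 and 302 CPM), beside 90.6 and 110 CPM in the other nuclei. A single nucleus gave 56.5% of these NCKO UMIs. Without the nuclei with neuronal UMIs the red blood cell genes had 3 and 11 UMIs (30.8 and 58.6 CPM). The radial glia list stood at 1068 CPM in gated F/F and 903 in gated NCKO nuclei against 490 and 545 in the others. The astrocyte list stood at 679 and 450 CPM against 507 and 571, with Slc1a3 its main gene in F/F nuclei. Among the other astrocyte genes, Aldh1l1, Gja1 and Gjb6 were at 0 in both libraries, and Aqp4 and Gfap had 0 UMIs in F/F and 1 UMI each in NCKO nuclei.

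The 20 genes that stood furthest above the other nuclei in both libraries describe what sets these nuclei apart. The noncoding RNA Gm10863 led them, with 263 CPM in gated F/F nuclei and 104 in gated NCKO nuclei against 1.57 and 1.62 in the other nuclei. Its gene lies at chr15:79166041-79227524 on the plus strand of GRCm38, and its start is 801 bases beyond the end of the minus-strand gene Sox10 (chr15:79154908-79165240), so the pair is arranged head to head with no overlap. Lhfpl3 (chr5:22746059-23275597) stood at 5981 and 4194 CPM against 216 and 296 in the other nuclei, and Sox6 (chr7:115470872-116038796) at 2956 and 2149 against 230 and 199. Itpr2, an intracellular calcium release channel, stood at 342 and 220 CPM against 8.82 and 10.8, and Pstpip2, a membrane-bending adaptor, at 284 and 181 against 6.35 and 7.12. Pcdh11x, a protocadherin, stood at 1741 and 1226 CPM, Chd7, a chromatin remodeler of the oligodendrocyte lineage, at 684 and 461, and Zeb1, a repressor of differentiation, at 1657 and 1019. The list also held the signalling and matrix genes Smoc1 (316 and 234 CPM) and Serpine2 (531 and 450), and the GTPase regulators Arhgap31 (600 and 349) and Arhgef3 (389 and 239).

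All 20 were also higher in gated nuclei than in nuclei picked by astrocyte genes, by log2 differences that ranged, in the lower of the 2 libraries, from 0.79 for Arhgef3 to 4.54 for Lhfpl3. Gm10863 had 0 and 2.06 CPM in those astrocyte-gene nuclei, whereas Sox6 had 812 and 603 and Zeb1 823 and 414, so these last 2 were not confined to gated nuclei. Their log2 differences in the lower library were 1.82 and 1.01. Gm42948 (295 and 198 CPM) lies antisense within Lhfpl3, and Gm45025 (263 and 186) antisense within Sox6. The labels do not say whether counting used strand, so reads of such pairs cannot be told apart. The mitochondrial share of UMIs in gated nuclei was 0.122% and 0.225%.

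**Figure D2:**
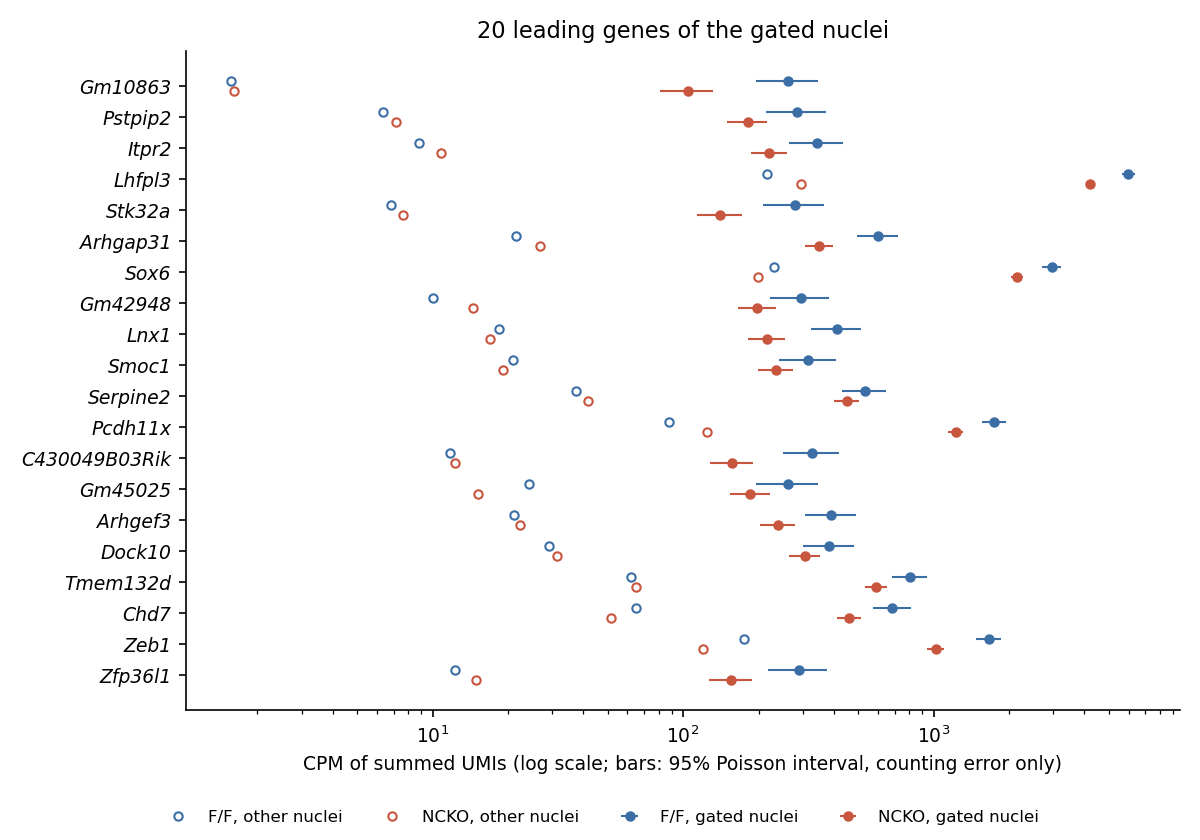
The horizontal axis gives CPM of summed UMIs on a log scale for the 20 leading genes, with filled points for gated nuclei (95% Poisson interval) and open points for all other nuclei, F/F in blue and NCKO in red. For Gm10863 the filled points sit at 263 and 104 CPM and the open points at 1.57 and 1.62.

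Sequence just upstream of these genes is shown because the SOX factors define the lineage. The core letters read by SOX proteins, taken here as ACAAAG or ACAATG on either strand (CTTTGT and CATTGT on the other), occurred in the 250 bases before the start of 3 of the 9 leading genes with a RefSeq entry, Gm10863, Sox6 and Serpine2 (33.3%), and of 25.5% of 27025 mouse genes. The 2 windows below are read 5′ to 3′ on the strand of the gene from RefSeq on GRCm38.p6, with the match in capitals, Gm10863 at chr15:79165816-79166065 (plus strand) and Sox6 at chr7:116038745-116038994 (minus strand).
Gm10863: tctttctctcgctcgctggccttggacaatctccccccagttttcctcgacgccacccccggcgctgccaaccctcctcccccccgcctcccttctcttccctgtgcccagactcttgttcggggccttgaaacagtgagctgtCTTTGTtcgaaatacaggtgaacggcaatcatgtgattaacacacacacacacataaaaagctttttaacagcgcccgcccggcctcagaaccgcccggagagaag
Sox6: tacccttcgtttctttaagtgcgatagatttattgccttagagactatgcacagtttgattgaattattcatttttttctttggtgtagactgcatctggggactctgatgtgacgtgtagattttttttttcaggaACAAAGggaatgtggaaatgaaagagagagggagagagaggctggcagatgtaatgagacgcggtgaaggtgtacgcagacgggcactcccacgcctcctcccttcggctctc
A match is a description of the letters, not a bound site. Starts are those of RefSeq, and that of Arhgef3, 1 of the 9 genes, lies 29094 bases from the nearest GENCODE start. For Gm10863 and Sox6 this distance was 0, although both windows overlap the GENCODE gene spans given above.

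The NCKO library held a larger share of gated nuclei. In the F/F library they made up 0.742% of 6467 nuclei with 500 or more genes (48 nuclei, Clopper-Pearson interval 0.548 to 0.983%) and in the NCKO library 1.14% of 10731 (122 nuclei, 0.945 to 1.36%). The ratio of the shares, NCKO over F/F, was 1.53 (1.09 to 2.19). It was 1.37 with the highest doublet scores removed, 1.37 with every nucleus thinned to 1500 UMIs before gating, and 1.13 (0.717 to 1.80) when nuclei with neuronal UMIs were left out of the gated set. The direction was the same in each, and the last interval holds 1.

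Men1 itself was too low in these nuclei to check the labels. It had 0 UMIs in the 48 F/F nuclei, which allows up to 6.25% of nuclei with a UMI and a level of up to 15.8 CPM, and 9 UMIs in 8 of 122 NCKO nuclei (13.6 CPM). In the other nuclei Men1 (chr19:6334979-6340891) stood at 10.4 and 13.5 CPM, so its level was not lower in the library labelled NCKO. A 3′ tag can lie outside the removed part of a gene and then checks nothing. Directions below are those of the library labelled NCKO.

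Genes of the menin, MLL and Polycomb complexes summed to 2236 CPM in F/F and 1876 in NCKO gated nuclei, a ratio of 0.839 (0.751 to 0.939), and 0.768 without the neuronal nuclei. Over the 8 members with 50 or more UMIs the median log2 ratio was -0.17, and 6 were below 0, beside 50.5% of all genes at that minimum. Kdm6a, an H3K27 demethylase found with MLL proteins, stood at 195 and 113 CPM, a ratio of 0.582 (0.387 to 0.888). Kmt2a, which encodes the MLL protein, stood at 263 and 204 (0.775, 0.556 to 1.09), and Ezh2, the Polycomb methyltransferase, at 168 and 192 (1.14, 0.768 to 1.74), with both intervals holding 1. Epha4, the guidance receptor named in the title of the study, was at 147 and 116 CPM in gated nuclei (ratio 0.789, 0.506 to 1.26) and at 253 and 159 in the other nuclei. An Epha4 UMI was found in 16 of 48 and 43 of 122 gated nuclei, and at 1000 UMIs in 6.25% and 10.7%, a difference of 4.49 points (-7.50 to 13), so at this depth the 2 libraries could not be told apart.

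The identity genes were lower in the NCKO library over all gated nuclei and were not lower once nuclei with neuronal UMIs were left out. Summed over the list they stood at 30848 CPM in F/F and 24698 in NCKO nuclei, a ratio of 0.801 (0.777 to 0.825). The ratio was 0.971 with the highest doublet scores removed and 1.08 (1.04 to 1.13) without the neuronal nuclei. Across 23 members with 50 or more UMIs the log2 ratio had a median of -0.46 with 18 below 0, beside 50.5% of all genes at the same minimum. Without the neuronal nuclei the median was 0.09 over 20 members, with 7 below 0, beside 50.3% of all genes. The direction of the list thus depends on which nuclei are counted.

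The identity genes named next, apart from Luzp2, were lower over all gated nuclei and not lower without the neuronal nuclei. Lhfpl3 had a ratio of 0.701 (0.654 to 0.752) over all gated nuclei and 1.06 (0.968 to 1.16) without the neuronal nuclei, and Sox6 0.727 and 1.15. Ptprz1, a receptor phosphatase of the precursor surface, stood at 2783 and 2045 CPM (0.735) and had a ratio of 1.01 without the neuronal nuclei. Pcdh15, a protocadherin, stood at 3083 and 2209 CPM (0.717 and 1.06). Tnr, the matrix protein tenascin-R, was at 1347 and 995 CPM (0.739), yet 1.45 (1.17 to 1.80) without the neuronal nuclei. Luzp2, a leucine zipper protein gene, was at 1383 and 1445 CPM with ratios of 1.04 and 1.5 (1.23 to 1.83).

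A few lineage genes were lower in the NCKO library in both sets of nuclei. Sox8, a close relative of Sox10 that works with it, stood at 147 CPM in F/F and 74.0 in NCKO nuclei, a ratio of 0.502 (0.310 to 0.830), and 0.449 (0.230 to 0.868) without the neuronal nuclei. Tcf7l2, a Wnt effector needed for precursors to mature, stood at 395 and 193 CPM, a ratio of 0.490 (0.366 to 0.660) and 0.625 (0.421 to 0.933). In the other nuclei Tcf7l2 was at 20.4 and 21.2 CPM. Bcan, the matrix protein brevican, stood at 289 and 154 CPM with ratios of 0.532 and 0.787, and Megf11, an adhesion receptor, at 337 and 174 with ratios of 0.516 and 0.740. The endothelin receptor gene Ednrb stood at 342 and 154 CPM with ratios of 0.450 (0.327 to 0.625) and 0.638 (0.399 to 1.03). For Tcf7l2 and these last 3 genes the ratio without the neuronal nuclei was nearer 1, and for Ednrb its interval there holds 1.

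**Figure D3:**
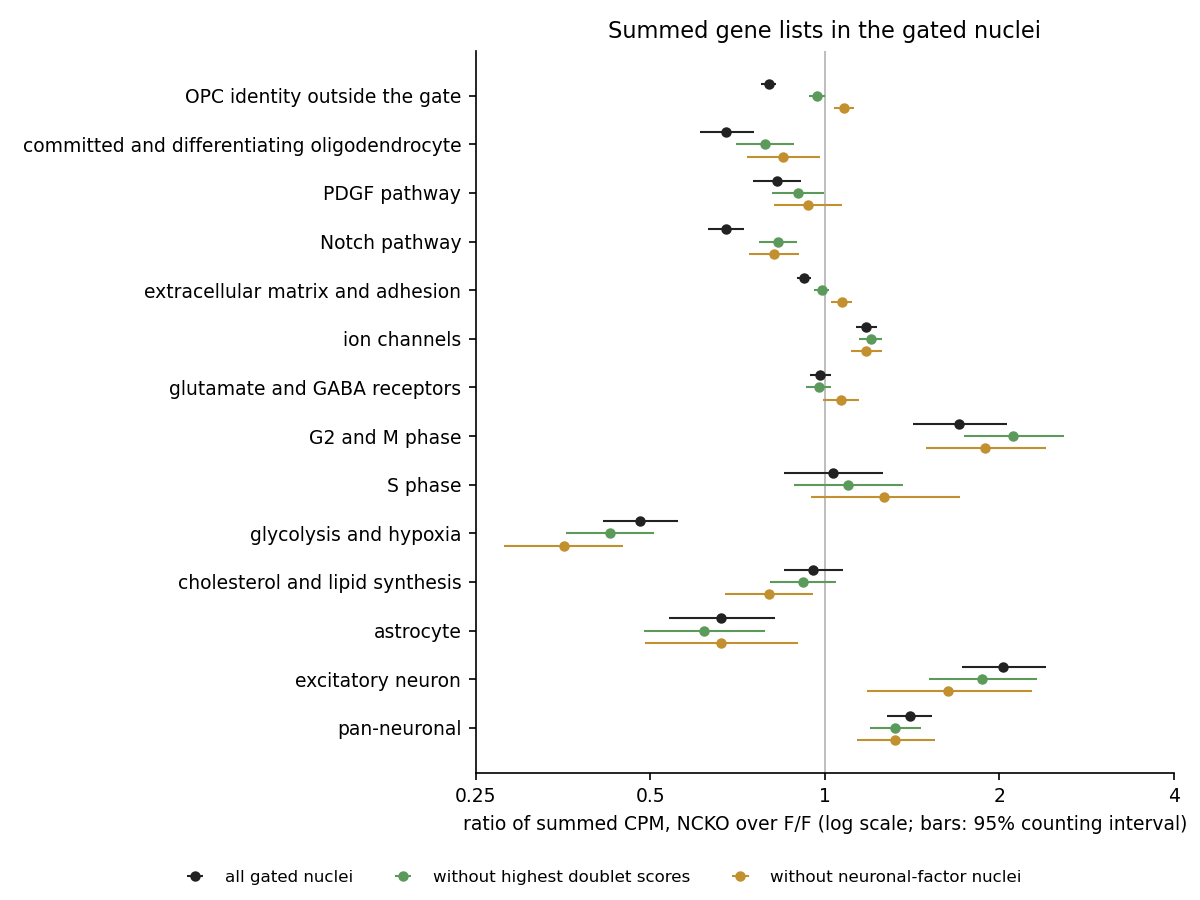
The horizontal axis gives the ratio of summed CPM, NCKO over F/F, on a log scale with 95% counting intervals for 14 gene lists in the gated nuclei, for all gated nuclei (black), without the highest doublet scores (green) and without nuclei holding neuronal UMIs (gold). The identity list moves from 0.801 to 1.08 across the sets, glycolysis stays between 0.355 and 0.480, and G2 and M phase between 1.71 and 2.11.

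Genes of later stages of the lineage ranged from 0 UMIs to levels well above those of the other nuclei. The list of committed and differentiating oligodendrocytes stood at 2562 and 1734 CPM in gated nuclei against 861 and 826 in the others, and 6 of its 10 members with 50 or more UMIs were at least 2-fold higher in gated nuclei in both libraries, beside 6.96% of all genes. At the other end, Bmp4, Enpp6 and Nkx6-2, had 0 UMIs in both. A count of 0 allows up to 6.25% of F/F nuclei and 2.46% of NCKO nuclei with a UMI of such a gene. Myrf, the master factor of myelin genes, had 2 and 3 UMIs. Of 17 myelin genes 9 were at 0 in each library, among them Mag, Mobp and Opalin, while a UMI of any gene of that list was in 24 of 48 F/F and 56 of 122 NCKO nuclei (50% and 45.9%), beside 41.6% and 34.3% of excitatory neurons. Mbp, a major myelin protein gene, had 8 and 12 UMIs (42.1 and 18.1 CPM), beside 26.1 and 17.8 CPM in the other nuclei.

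As a sum, genes of the committed stage stood lower in the NCKO library. Gpr17, Sox8 and Zfp488 are in this list and in the identity list. The committed list summed to 2562 CPM in F/F and 1734 in NCKO nuclei, a ratio of 0.677 (0.608 to 0.754). The ratio was 0.789 with the highest doublet scores removed and 0.848 (0.734 to 0.981) without the neuronal nuclei. The same list had a ratio of 0.959 in the other nuclei and 0.807 (0.723 to 0.903) in astrocyte-gene nuclei, so the lower sum was not confined to gated nuclei. All 10 members with 50 or more UMIs were below 0, beside 50.5% of all genes at that minimum, with a median log2 ratio of -0.57, and 1, Tcf7l2, was at least 2-fold lower, beside 2.07%. At 10 or more UMIs 11 of 14 had the lower CPM, beside 46.4%. Without the neuronal nuclei 4 of 5 members with 50 or more UMIs were below 0, beside 50.3%, with a median of -0.24. Bcas1, expressed as precursors begin to differentiate, stood at 137 and 99.7 CPM (ratio 0.729, 0.456 to 1.20), and Fyn, a kinase of process outgrowth and early myelination, at 679 and 433 (0.639, 0.517 to 0.792, and 0.845 without the neuronal nuclei). Itpr2 had ratios of 0.645 and 1.13 in the 2 sets. Gpr17, the receptor of the transition stage, was found in 14 of 48 F/F nuclei (29.2%) and 33 of 122 NCKO nuclei (27.0%), and in 8.33% and 9.09% at 1000 UMIs, so its share did not separate the libraries. Excitatory neurons had it in 1 of 1516 and 1 of 2747.

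UMIs of Gpr17 and Egfr were found together in 1 gated nucleus of each library. Egfr encodes the EGF receptor of progenitors. Its UMIs were in 1 of 14 Gpr17-positive against 7 of 34 Gpr17-negative F/F nuclei (20.6%), and in 1 of 33 against 21 of 89 NCKO nuclei (23.6%). Egfr stood at 166 CPM without and 51.8 with Gpr17 in the F/F library, and at 219 and 5.59 in the NCKO library. Both libraries thus had the lower Egfr level in the nuclei with Gpr17, whose median depth was no lower (3332 with against 3231.5 without in F/F, 4516 against 3804 in NCKO). Dll1, a Notch ligand of progenitors, stood at 68.1 without and 17.3 with Gpr17 in F/F, and at 47.6 and 16.8 in NCKO. Sox9, a factor of radial glia and astrocytes, was found in 1 of 14 and 14 of 34 F/F nuclei with and without Gpr17, and in 11 of 33 and 36 of 89 NCKO nuclei. Over all gated nuclei Egfr stood at 132 CPM in F/F and 162 in NCKO (ratio 1.23, 0.789 to 1.98). An Egfr UMI was in 16.7% of F/F and 18.0% of NCKO gated nuclei, and in 19.4% and 8.62% without the neuronal nuclei. The Gpr17 pairs were counted over all gated nuclei only, so they include nuclei with neuronal UMIs. Mki67 or Top2a gave the same F/F counts as Egfr, 1 of 14 nuclei with Gpr17 and 7 of 34 without it. In NCKO nuclei they gave 9 of 33 and 28 of 89. The F/F counts are thus few, and no pair was tested. The pairing of these genes was looked at after their values were seen.

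**Figure D4:**
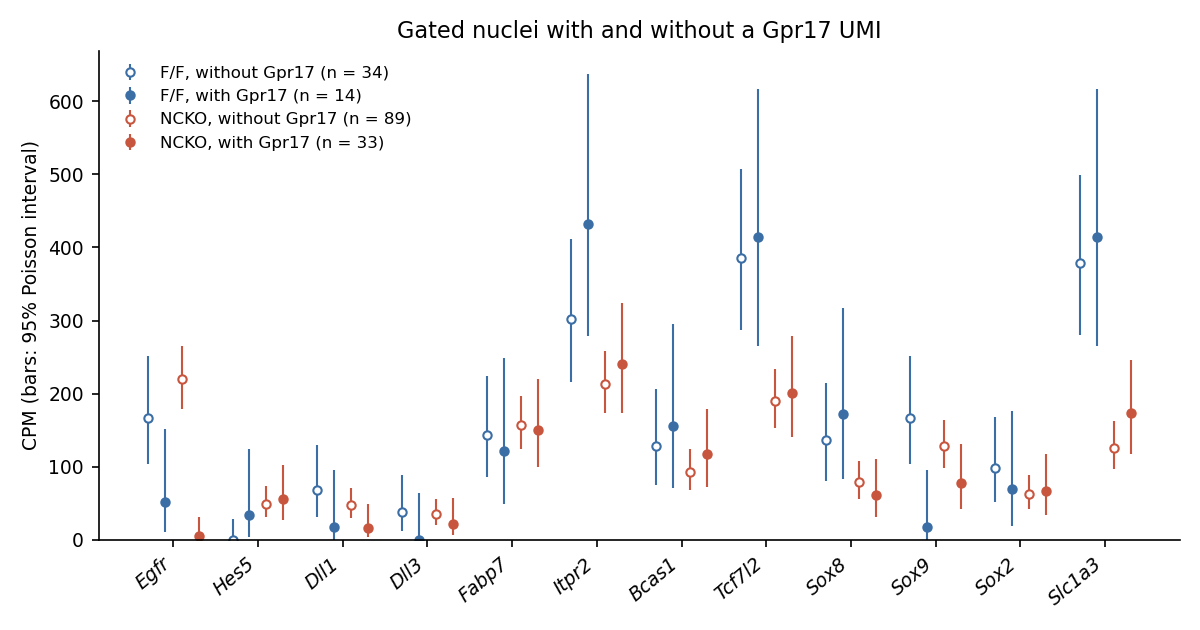
The vertical axis gives CPM with 95% Poisson intervals for 12 genes in gated nuclei with (filled) and without (open) a Gpr17 UMI, F/F in blue (14 and 34 nuclei) and NCKO in red (33 and 89 nuclei). Egfr stands at 166 and 219 CPM without Gpr17 and at 51.8 and 5.59 with it, while Slc1a3 is lower in NCKO in both classes.

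Slc1a3 was lower in the gated NCKO nuclei and near level in the other nuclei, a contrast that was not tested. It encodes the glutamate transporter GLAST of radial glia, astrocytes and early precursors (chr15:8634124-8710764). Gated F/F nuclei had 74 UMIs (389 CPM) and gated NCKO nuclei 92 (139 CPM), a ratio of 0.357 (0.260 to 0.491), beside 169 and 172 CPM in the other nuclei. Without the neuronal nuclei the ratio was 0.437 (0.274 to 0.692). A Slc1a3 UMI was present at 1000 UMIs in 39.6% of F/F and 13.2% of NCKO nuclei, a difference of -26.4 points (-42.5 to -10.7), and unthinned in 64.6% and 42.6%. Excitatory neurons at 1000 UMIs had it in 7.92% and 8.92%. The size of the difference in gated nuclei depended on depth. At 500 UMIs it was -7.21 points (-21.0 to 3.30), and at 2000 UMIs -23.3 (-41.1 to -4.71). Without the neuronal nuclei it was -2.34 (-21.5 to 13.4) at 500 UMIs, -34.6 (-54.6 to -13.7) at 1000 and -23.5 (-47.5 to 3.34) at 2000.

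Slc1a3 is among the genes with the lowest ratios over all gated nuclei. Its levels in parts of the same nuclei are therefore a description and no separate support. Of the F/F nuclei only 14 held Gpr17 and 8 held Mki67 or Top2a UMIs. The Slc1a3 level was 378 CPM in F/F and 126 in NCKO nuclei without Gpr17 and 414 and 173 with it. Among nuclei without Mki67 or Top2a UMIs it was 401 and 111, and among nuclei with them 359 and 186. The astrocyte list, which holds Slc1a3, summed to 129 and 298 UMIs, or 679 and 450 CPM, with 7 and 3 of 15 members at 0, and Slc1a3 gave 74 and 92 of these UMIs. Its other members did not share one direction: of 8 members with 10 or more UMIs, Slc1a3 among them, 4 were lower in the NCKO library, with a median log2 ratio of 0.17. The median was -0.79 over the 3 members with 50 or more UMIs. Slc1a2, the other glutamate transporter gene of astrocytes, stood at 99.9 and 55.9 CPM with a ratio whose interval holds 1 (0.559, 0.313 to 1.03). Fabp7, a lipid carrier shared by radial glia and precursors, stood at 137 and 156 CPM (1.14, 0.734 to 1.82), and Sox9 at 121 and 115 (0.949, 0.588 to 1.59).

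Hes5, a repressor that Notch signalling switches on in progenitors (chr4:154960923-154962371), was higher in the NCKO nuclei. It had 2 UMIs in 1 of 48 F/F nuclei (10.5 CPM) and 34 UMIs in 28 of 122 NCKO nuclei (51.3 CPM), a ratio of 4.88 (1.25 to 41.9). Without the neuronal nuclei it had 0 UMIs in 31 F/F nuclei and 20 UMIs in 17 of 58 NCKO nuclei. At 1000 UMIs it was found in 2.08% and 9.92% of gated nuclei, a difference of 7.83 points (-2.30 to 14.9). At the same depth the difference was 12 points (2.45 to 20) with the highest doublet scores removed and 17.5 (3.29 to 29.9) without the neuronal nuclei. Excitatory neurons had a Hes5 UMI at 1000 UMIs in 0.594% and 0.546%, and astrocyte-gene nuclei in 13.9% and 12%. Hes5 was singled out after its values were seen.

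Other Notch genes gave mixed values. Hes1, a second Notch target, had 6 and 9 UMIs (31.6 and 13.6 CPM), the ligand gene Dll3 26.3 and 31.7 CPM, and the receptor gene Notch1 63.1 and 36.2 CPM. Maml2 and Maml3, coactivators of the Notch transcription complex, stood at 3325 and 2182 CPM (0.656, 0.597 to 0.722) and at 395 and 180 CPM (0.455, 0.338 to 0.616). Without the neuronal nuclei their ratios were 0.874 and 0.215. Numb, an inhibitor of Notch, stood at 184 and 87.6 CPM (0.476, 0.307 to 0.746, and 0.714 without the neuronal nuclei). The Notch list summed to a ratio of 0.675 over all gated nuclei and 0.817 without the neuronal nuclei, with a median log2 ratio of -0.60 over 6 members.

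The PDGF pathway, which drives division of these cells, showed small differences outside the gate. Its 31 ligand, receptor and downstream genes summed to a ratio of 0.827 (0.753 to 0.910) and to 0.935 (0.816 to 1.07) without the neuronal nuclei. Of 17 members with 50 or more UMIs 12 were below 0, beside 50.5% of all genes, with a median log2 ratio of -0.23, and 1 was at least 2-fold lower, beside 2.07%. With the neuronal nuclei left out, 4 of 8 were below 0 and the median was -0.11. The 1 lower gene was Etv5, an ETS factor downstream of the receptor, at 153 and 64.9 CPM (0.426, 0.260 to 0.707, and 0.547, 0.277 to 1.08, without the neuronal nuclei). Spry2, a feedback inhibitor of the pathway, stood at 110 and 52.9 CPM (0.478, 0.271 to 0.865, and 0.923 without the neuronal nuclei). Pik3r1, the regulatory subunit of PI3 kinase, stood at 384 and 260 (0.676).

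Genes of mitosis were higher in the NCKO nuclei. The G2 and M phase list of 31 genes had 134 UMIs in F/F nuclei (705 CPM) and 797 in NCKO nuclei (1204 CPM), a ratio of 1.71 (1.42 to 2.07). It was 2.11 (1.74 to 2.59) with the highest doublet scores removed and 1.89 (1.5 to 2.41) without the neuronal nuclei. The same list had a ratio of 0.939 in the other nuclei and 0.784 in astrocyte-gene nuclei. Its UMIs lay in 18 of 48 F/F and 69 of 122 NCKO gated nuclei, and in 13 of 31 and 27 of 58 without the neuronal nuclei. A single nucleus gave 20.1% of the F/F and 7.53% of the NCKO UMIs, and 29.3% and 17.6% without the neuronal nuclei. The intervals do not cover this spread between nuclei. Of 25 members with 10 or more UMIs, a minimum set after the data were seen, 22 had the higher CPM in the NCKO nuclei and 12 were at least 2-fold higher, beside 10% of all genes at that minimum. At the minimum of 50 UMIs 2 of 5 members, Knl1 and Prc1, were at least 2-fold higher, beside 5.3% of all genes, with a median log2 ratio of 0.61.

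Its members ranged widely. Cenpf, a kinetochore protein gene, stood at 10.5 and 71.0 CPM (ratio 6.75, 1.77 to 57.3), Knl1, another, at 21.0 and 75.5 (3.59, 1.32 to 13.7), and Prc1, which bundles the mitotic spindle, at 21.0 and 69.5 (3.30, 1.21 to 12.6). Top2a, a topoisomerase of dividing cells, stood at 68.4 and 107 (1.57, 0.861 to 3.09), and Mki67, the proliferation marker, at 31.6 and 46.8 (1.48, 0.610 to 4.35). Kif11, a spindle motor, was level at 78.9 and 81.5 CPM. The S phase list, genes of DNA replication, had a ratio of 1.03 (0.850 to 1.26), with an interval that holds 1. Whether the 2 lists differ was not tested.

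The share of nuclei with a division marker depended on depth and on the nuclei counted. A UMI of Mki67 or Top2a was found at 1000 UMIs in 3 of 48 F/F nuclei (6.25%) and 15 of 121 NCKO nuclei (12.4%), a difference of 6.15 points (-6.01 to 14.9). Unthinned, the shares were 16.7% and 30.3%, a difference of 13.7 points (-2.08 to 26.5). At 2000 UMIs the difference was 12.7 points (-1.66 to 23.4) over all gated nuclei, 16.2 (0.643 to 28.6) with the highest doublet scores removed and 28.5 (7.02 to 45.6) without the neuronal nuclei, where the shares were 4% and 32.5%. Excitatory neurons had such a UMI at 1000 UMIs in 0.462% and 0.655%. In both libraries nuclei with these UMIs had less Lhfpl3 than those without, 3004 against 7130 CPM in F/F and 3373 against 4684 in NCKO, and more Egfr, 283 against 72.9 and 182 against 149. Their median depths were 5070 and 5063 UMIs.

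Genes of glycolysis and the low-oxygen response were lower in the NCKO nuclei in every set counted. The list, whose members split glucose, move lactate or answer to hypoxia-inducible factors, had 286 UMIs (1505 CPM) in F/F and 478 (722 CPM) in NCKO nuclei, a ratio of 0.480 (0.414 to 0.557). It was 0.427 with the highest doublet scores removed and 0.355 (0.280 to 0.449) without the neuronal nuclei. The difference was not confined to precursors, since the ratio was 0.585 in the other nuclei and 0.549 in astrocyte-gene nuclei. Of 21 members with 10 or more UMIs 17 had the lower CPM in NCKO gated nuclei, beside 46.4% of all genes at that minimum, and 12 were at least 2-fold lower, beside 4.67%. In the other nuclei 21 of 21 had the lower CPM in the NCKO library.

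Targets of hypoxia-inducible factors were among the genes with the lowest ratios. Vegfa, the vessel growth factor, stood at 174 CPM in F/F and 46.8 in NCKO nuclei (0.270), and P4ha1, a collagen prolyl hydroxylase, at 242 and 110 (0.456). Pdk1, which keeps pyruvate out of the mitochondria, stood at 84.2 and 15.1 CPM (0.179, 0.0728 to 0.420). Egln3, a prolyl hydroxylase that senses oxygen, had 8 and 2 UMIs (0.0718, 0.00742 to 0.360), and the lactate exporter gene Slc16a3 8 and 1 (0.0359, 0.000809 to 0.268). Among the enzymes, Eno1 stood at 163 and 33.2 CPM (0.204, 0.112 to 0.363), Gpi1 at 99.9 and 34.7 (0.347) and Ldha, which makes lactate, at 57.9 and 21.1 (0.365). The glucose transporter genes Slc2a1 and Slc2a3 stood at 57.9 and 19.6 CPM (0.339) and at 73.6 and 31.7 CPM (0.431).

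Not every step of the pathway was lower. Hk1, a widely expressed hexokinase, stood at 31.6 and 66.4 CPM and Pfkm, a phosphofructokinase, at 5.26 and 27.2 CPM. Gapdh stood at 42.1 and 40.8 CPM, Pkm at 31.6 and 37.8, Pgam1 at 26.3 and 30.2, and Pfkp at 116 and 109. Of the 21 members with 10 or more UMIs, the 4 with the higher CPM in the NCKO library were Hk1, Pfkm, Pkm and Pgam1. Below that minimum, Aldoc had 0 and 2 UMIs and P4ha2 0 and 1.

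**Figure D5:**
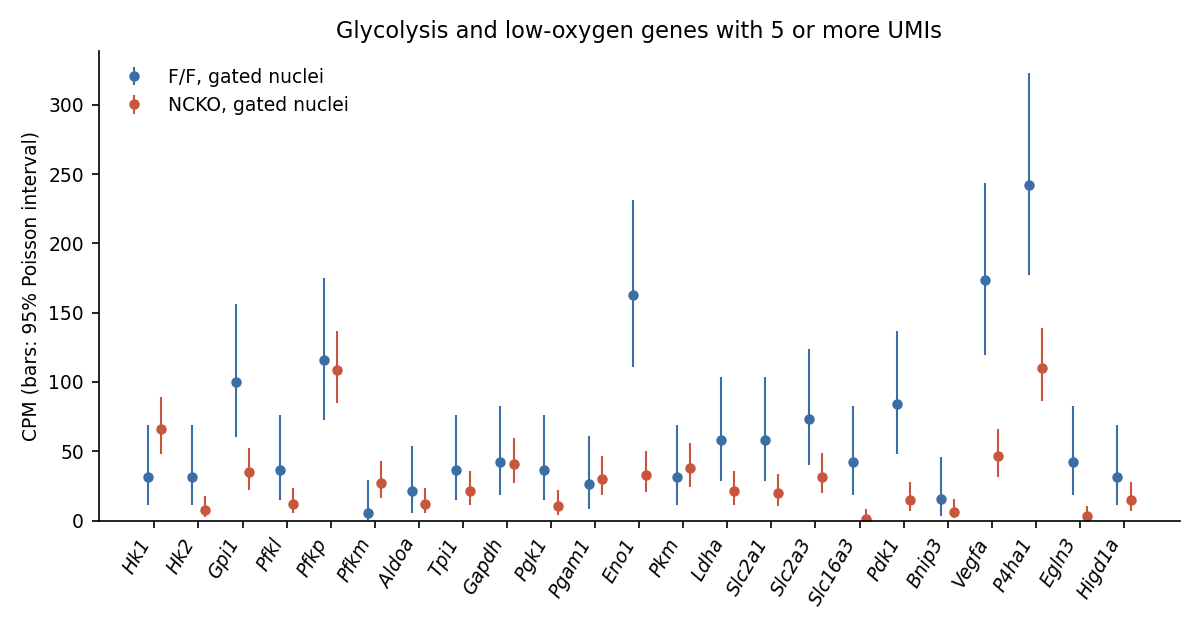
The vertical axis gives CPM with 95% Poisson intervals for glycolysis and low-oxygen genes with 5 or more UMIs in gated nuclei, F/F in blue and NCKO in red. Eno1, Vegfa and P4ha1 stand at 163, 174 and 242 CPM in F/F and at 33.2, 46.8 and 110 in NCKO, while Gapdh and Pfkp differ little.

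The core of the hypoxia response element, ACGTG or its complement CACGT, was searched in the same way and is shown because these genes differed together. It occurred in the 250 bases before the start of 13 of the 26 genes of the list with an entry (50%) and of 16.6% of 27025 mouse genes. Members were listed in part because they answer to hypoxia-inducible factors, so the higher share describes the list. It says nothing of why levels differed between the libraries, which was not tested. The windows of 3 members are given 5′ to 3′ on the plus strand, on which all 3 genes lie, with matches in capitals, Slc16a3 at chr11:120948817-120949066, Ldha at chr7:46845554-46845803 and P4ha1 at chr10:59323046-59323295.
Slc16a3: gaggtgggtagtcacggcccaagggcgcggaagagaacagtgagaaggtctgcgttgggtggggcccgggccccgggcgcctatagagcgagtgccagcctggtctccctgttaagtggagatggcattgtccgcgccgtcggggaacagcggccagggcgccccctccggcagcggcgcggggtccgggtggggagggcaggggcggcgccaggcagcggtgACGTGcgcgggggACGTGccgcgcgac
Ldha: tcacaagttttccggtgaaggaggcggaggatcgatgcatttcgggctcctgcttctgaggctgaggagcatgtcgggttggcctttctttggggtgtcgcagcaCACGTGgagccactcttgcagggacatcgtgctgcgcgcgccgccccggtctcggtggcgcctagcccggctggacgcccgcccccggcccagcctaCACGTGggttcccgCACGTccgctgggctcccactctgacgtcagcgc
P4ha1: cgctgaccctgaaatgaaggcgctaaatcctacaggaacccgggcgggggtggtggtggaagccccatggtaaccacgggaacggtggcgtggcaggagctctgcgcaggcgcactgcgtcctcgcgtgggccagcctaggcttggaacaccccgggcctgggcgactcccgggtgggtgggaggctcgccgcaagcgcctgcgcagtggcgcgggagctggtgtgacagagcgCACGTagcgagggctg
In Ldha the palindrome CACGTG counts once on each strand. Eno1, Pdk1, Vegfa and Gpi1 had no match in this window, which says nothing of sites elsewhere. Matches also stood before members with the higher CPM in the NCKO library, 2 before Pfkm (ratio 5.17), 1 before Pgam1 (1.15) and 1 before P4ha2, which had 0 UMIs in F/F nuclei.

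Some transcription and growth genes differed by as much. Grb10, an imprinted adaptor that restrains insulin and IGF signalling, had 36 UMIs in 19 F/F nuclei (189 CPM) and 14 UMIs in 11 NCKO nuclei (21.1 CPM). Its ratio was 0.112 (0.0556 to 0.212) over all gated nuclei and 0.130 (0.0381 to 0.357) without the neuronal nuclei, beside 31.1 and 19.9 CPM in the other nuclei. The F/F level was thus high in gated nuclei and the NCKO level near that of the other nuclei. Npas1, a bHLH-PAS factor, stood at 184 and 64.9 CPM (0.353, 0.220 to 0.568, and 0.355 without the neuronal nuclei). Zbtb20, a zinc finger factor of glial and hippocampal lineages, stood at 1047 and 598 CPM (0.571), and Nfia, a factor that starts gliogenesis, at 926 and 677 (0.731). Both were also lower in the other NCKO nuclei, Zbtb20 at 864 and 499 CPM and Nfia at 636 and 389. Srebf2, the regulator of cholesterol synthesis, stood at 237 and 112 CPM (0.472, 0.322 to 0.70), whereas the cholesterol and lipid list summed to a ratio of 0.956 (0.852 to 1.08). Hmga2, a chromatin protein of fetal progenitors, stood at 210 and 237 CPM in gated against 5.98 and 6.03 CPM in other nuclei, and its ratio was 1.13 over all gated nuclei and 2.19 (1.30 to 3.90) without the neuronal nuclei. Grb10, Npas1 and Hmga2 were singled out after their values were seen.

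Transmitter receptor genes as a group gave a ratio near 1, and ion channel genes one above 1. Precursors receive synapses, and their glutamate and GABA receptor genes summed to a ratio of 0.983 (0.941 to 1.03) over all gated nuclei and 1.06 (0.991 to 1.14) without the neuronal nuclei. Gria2, an AMPA receptor subunit that sets calcium entry, stood at 2057 and 1767 CPM (0.859). Ion channel genes summed to 1.18 (1.13 to 1.23) in all gated nuclei and 1.18 (1.11 to 1.26) without the neuronal nuclei, beside 1.10 in the other nuclei. Kcnd2, a potassium channel of the A type, stood at 5450 and 4615 CPM (0.847), yet 1.39 (1.26 to 1.53) without the neuronal nuclei. Kcnip4, an auxiliary subunit of that channel, stood at 295 and 2099 CPM, a ratio of 7.13 (5.45 to 9.48), and of 2.84 (2.03 to 4.06) without the neuronal nuclei. In the other nuclei Kcnip4 was at 2279 and 3282 CPM, above its level in gated nuclei of both libraries, and 1 nucleus gave 55.4% of its UMIs in the F/F set.

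Over single genes with 100 or more UMIs, 96 of 1664 (5.77%) were at least 2-fold higher in the NCKO library and 30 (1.8%) at least 2-fold lower. Without the neuronal nuclei 378 genes reached that minimum, of which 18 (4.76%) were higher and 9 (2.38%) lower. The 12 genes with the highest ratios were Cdh18, Gm49678, Kif26b, Kcnip4, 6530403H02Rik, Caln1, Syt4, Rapgef5, Cdh8, Rgs6, Nin and Ccbe1, with log2 ratios from 2.24 to 3.33. All 12 were higher in the other nuclei than in gated nuclei of the F/F library, as for Cdh18, an adhesion molecule of neurons, at 345 CPM in other and 26.3 in gated F/F nuclei and 310 in gated NCKO nuclei. A single nucleus gave 48.3% of the Cdh18 UMIs in the NCKO set.

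The 12 genes with the lowest ratios were of several kinds. Kcnc2, a potassium channel of fast-firing interneurons, stood at 831 and 186 CPM, Reln, the migration signal of Cajal-Retzius cells and interneurons, at 1026 and 320, and 4930555F03Rik at 279 and 74.0, and 1 nucleus gave 62.7%, 61.0% and 88.7% of their F/F UMIs. Slc1a3 and Gm10863 are described above, and Gm10863 had a ratio of 0.396 over all gated nuclei and 0.410 (0.245 to 0.680) without the neuronal nuclei. Nr6a1, an orphan nuclear receptor, stood at 589 and 219 CPM (0.372, and 0.355 without the neuronal nuclei), and Gpc5, a glypican, at 694 and 258 (0.372 and 0.411). Cdon, a co-receptor for Hedgehog, stood at 274 and 104 (0.381 and 0.394), and the noncoding 2610307P16Rik at 363 and 139, beside 596 and 194 in the other nuclei. Svil, an actin-binding protein gene, stood at 368 and 131 (0.357 and 0.559), Sema5a, a guidance cue, at 263 and 103 (0.390 and 0.519), and Grik1, a kainate receptor subunit, at 500 and 201 (0.402 and 0.683). Each of the 12 had a ratio under 1 in both sets of nuclei, but with 4 of the 5 gate genes required Cdon and Reln were higher in the NCKO library (log2 0.15 and 0.084).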

How the data were processed

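The deposited matrices list raw UMI counts, 1 whole number for each gene in each barcode, written by Cell Ranger 6.1.0 per the file headers. The submitters' processing notes also name mm10 and Seurat, with no role or version. The files held 6477 and 10750 barcodes with 30116311 and 50115162 UMIs over 33938 genes, and 15 barcodes were shared by the libraries, none of them gated. UMIs were summed over gated nuclei of each library (190096 and 662208) and divided by that total to give CPM. Log2 ratios use CPM plus 5. Single genes needed 100 UMIs and gene lists 50 a member over both libraries. Intervals are exact Poisson for levels, conditional binomial for ratios, Clopper-Pearson for shares and Newcombe for their differences, and cover counting error only. UMIs removed duplicate reads before deposit.

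The genes named are Men1, the gate genes, members of 30 gene lists by role, the 12 highest and 12 lowest ratios, and the 20 genes furthest above other nuclei. The members and lists were chosen with earlier results of these data known, and list members were picked for the text with values in view. Doublets were scored against simulated pairs and 0.8% per 1000 barcodes were marked, 336 and 924 barcodes. They were kept in the values except where stated. Excitatory neurons had at least 3 of 6 projection neuron genes, Neurod2 and Neurod6 among them, and no Gad1 or Gad2, and astrocyte-gene nuclei 3 of Aldh1l1, Aqp4, Gja1, Slc1a3, Aldoc and Sox9 and no Eomes. Both sets exclude nuclei with Pdgfra or Sox10 unless stated. Positions come from GENCODE vM21 and upstream sequences from RefSeq. The calculations used Python 3.11.15, numpy 2.4.6, scipy 1.17.1, pandas 2.3.3, scikit-learn 1.9.0 and, for TMM scaling as an alternative, edgeR 4.0.16 in R 4.3.3. The ratio code was tested on simulated data.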

Additional observations from a re-analysis of the deposited data

How the results depend on the processing

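With 1 library a genotype, no difference can be separated from a difference between libraries. No paired analysis was possible because each genotype has 1 library. The ratio of shares of gated nuclei kept its direction under all 7 alternatives, from 1.13 to 1.76. The difference in nuclei with Mki67 or Top2a ran from -0.137 points at 500 UMIs to 13.7 unthinned over all gated nuclei, and was 28.5 at 2000 UMIs without the neuronal nuclei and 16.2 without the highest doublet scores. The number of genes at least 2-fold higher, 96, was 179 with the UMI minimum halved, 1770 with none, 12 with nuclei thinned to 1000 UMIs, 46 with 4 of the 5 marker genes, 41 without the highest doublet scores and 18 without the neuronal nuclei. The number at least 2-fold lower, 30, was 70, 1441 and 2 under the first 3 of these, 15 without doublet scores, 9 without the neuronal nuclei and 18 with each nucleus weighted equally. Fewer genes reach the minimum where nuclei are removed or thinned.

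The identity median log2 ratio of -0.46 was -0.15 thinned, -0.11 without doublet scores and 0.088 without the neuronal nuclei. The astrocyte median of -0.79 was 0.17 at 10 or more UMIs and 0.53 with no minimum, and the Notch median of -0.60 was -0.094 with no minimum, -0.31 without the neuronal nuclei and -0.37 with equal weights. For summed levels without the neuronal nuclei, without doublet scores, and without both, the identity ratio was 1.08, 0.971 and 1.10, and the committed ratio 0.848, 0.789 and 0.857. Glycolysis was 0.355 without the neuronal nuclei and 0.355 without both, the excitatory list 1.63 and 1.60, and G2 and M phase 2.11 without doublet scores. Single genes that changed sign were 4930555F03Rik, at 2.07 without Mki67 or Top2a nuclei and 0.72 without its top nucleus, and, with 4 of the 5 marker genes, Reln at 0.084 and Cdon at 0.15 (log2). The cause of these shifts was not tested. Equal weights, leaving out the top nucleus, the summed ratios and the share without the neuronal nuclei were chosen after seeing the data.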
